A study of Mus musculus with 6 samples.

Results

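CXC chemokine transcripts were followed in RNA-seq libraries of CD8T cells that had shared a culture with DB2313-treated or untreated macrophages. The 10 members were taken by gene symbol (Cxcl1, Cxcl2, Cxcl3, Cxcl5, Cxcl9, Cxcl10, Cxcl12, Cxcl16, Pf4 and Ppbp) out of 54532 genes in the deposited table, of which 27310 had at least 1 count. Of these members, 9 passed the filter on low counts and were among the 14883 genes tested, and Cxcl12 did not pass it. In both groups, mouse CD8T cells from the spleen were first stimulated by anti-CD3/CD28 beads and then cocultured with thioglycolate-elicited peritoneal macrophages that had been activated with IFN-γ. The macrophages of the control group received no DB2313 and those of the DB2313 group received DB2313, an inhibitor of the myeloid transcription factor Spi1 (also known as PU.1). The strain, sex and age of the mice that gave these cells, and whether the 3 samples per group came from separate cultures, are not given in the sources used here, so the p-values measure the spread between these samples, which may be technical. GEO's labels call the source cells primary T cells without naming CD8, and name dendritic cells (DC) where the paper names macrophages, but the split of the samples by DB2313 is common to both.

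Each library held between 16611975 and 18596217 counted reads. T cell and macrophage genes were both counted in every library. All 20 genes of a T cell list (among them Cd3e, Cd8a and Lck) passed the test as higher with DB2313, beside 20.8% of all tested genes. Their summed level was 3540 to 3583 CPM (read counts scaled to a common library size with TMM normalization) in the control libraries and 5310 to 5393 CPM in the DB2313 libraries. Of 25 macrophage genes (among them Adgre1, Csf1r and Lyz2), 21 passed as lower and 3 as higher, beside 24.6% and 20.8% of all tested genes. Their median log2 fold change was -0.99 over the 24 tested, and their sum was 16193 to 16562 CPM against 6663 to 6836 CPM. Lyz2, the lysozyme gene of myeloid cells, alone made up 46.8% to 47.4% of that sum in the control libraries and 30.6% to 30.9% with DB2313; Vsig4 was at 0 in every library. Spi1 itself was at 286 ± 6.75 CPM in the control group and 156 ± 6.20 CPM in the DB2313 group (SD, n = 3 each). In RNA of mixed cells, fewer cells of a type and less RNA per cell cannot be told apart.

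CXC chemokines are small secreted proteins in which a single residue separates the first pair of cysteines. Those with a glutamate-leucine-arginine (ELR) motif before the cysteines (Cxcl1, Cxcl2, Cxcl3, Cxcl5 and the product of Ppbp) attract neutrophils, mainly through Cxcr2. Cxcl9 and Cxcl10 lack that motif, are induced by interferon and draw activated T cells through Cxcr3. Cxcl16 is made by macrophages and dendritic cells as a membrane protein whose shed domain is a ligand of Cxcr6, Cxcl12 is made mainly by stromal cells and binds Cxcr4, and Pf4 and Ppbp are stored in the alpha granules of platelets. In atherosclerosis these proteins are known for recruiting neutrophils, monocytes and T cells to the vessel wall.

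The genes lie in clusters. On chromosome 5 of GRCm38, Cxcl5, Ppbp, Pf4, Cxcl3, Cxcl1 and Cxcl2 lie in this order on the plus strand. Cxcl15, which is not a member, lies between Cxcl3 and Cxcl1, and Pf4 starts 2.37 kb after the end of Ppbp. Cxcl9 and Cxcl10 lie 1.42 Mb beyond Cxcl2 on the minus strand and are 18.6 kb apart. Cxcl12 is on chromosome 6 and Cxcl16 on chromosome 11. All 10 members had the same coordinates in the deposited table as in GENCODE mouse release M21.

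Promoter sequences of RefSeq (GRCm38.p6), running from 250 bases before to 50 bases after a gene's start, matched 8 of the 10 members, all but Cxcl5 and Cxcl16. Those of the 5 matched members that passed the test between the groups are shown, because DB2313 is directed at a transcription factor. Capitals mark matches, on either strand, to a PU.1 core (AGGAAGT), an interferon-stimulated response element (ISRE), the NF-kappa-B consensus or a TATA box (TATAAA).

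Pf4 promoter, chr5:90772185-90772484, plus strand: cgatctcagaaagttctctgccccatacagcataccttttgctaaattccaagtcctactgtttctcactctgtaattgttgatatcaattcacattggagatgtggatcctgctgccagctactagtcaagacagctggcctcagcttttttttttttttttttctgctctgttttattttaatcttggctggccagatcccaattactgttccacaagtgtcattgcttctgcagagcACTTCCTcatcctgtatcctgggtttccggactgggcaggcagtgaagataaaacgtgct
Ppbp promoter, chr5:90768268-90768567, plus strand: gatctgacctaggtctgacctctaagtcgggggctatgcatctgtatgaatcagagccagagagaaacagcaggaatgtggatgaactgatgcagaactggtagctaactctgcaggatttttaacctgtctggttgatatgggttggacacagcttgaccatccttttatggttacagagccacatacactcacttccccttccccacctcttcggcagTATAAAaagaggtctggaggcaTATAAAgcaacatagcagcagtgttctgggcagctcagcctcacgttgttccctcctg
Cxcl10 promoter, chr5:92348840-92349139, minus strand: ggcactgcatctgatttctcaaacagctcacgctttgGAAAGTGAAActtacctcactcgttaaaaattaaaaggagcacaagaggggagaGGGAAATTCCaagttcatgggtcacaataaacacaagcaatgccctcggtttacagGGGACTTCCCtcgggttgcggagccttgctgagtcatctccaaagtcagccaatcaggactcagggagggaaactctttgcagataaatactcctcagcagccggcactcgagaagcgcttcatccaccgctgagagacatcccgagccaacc
Cxcl9 promoter, chr5:92328030-92328329, minus strand: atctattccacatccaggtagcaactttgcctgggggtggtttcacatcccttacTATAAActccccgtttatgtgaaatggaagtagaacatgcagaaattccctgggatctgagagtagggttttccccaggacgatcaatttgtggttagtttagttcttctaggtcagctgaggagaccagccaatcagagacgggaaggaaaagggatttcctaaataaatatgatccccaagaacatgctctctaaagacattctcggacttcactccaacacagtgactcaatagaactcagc
Cxcl3 promoter, chr5:90785851-90786150, plus strand: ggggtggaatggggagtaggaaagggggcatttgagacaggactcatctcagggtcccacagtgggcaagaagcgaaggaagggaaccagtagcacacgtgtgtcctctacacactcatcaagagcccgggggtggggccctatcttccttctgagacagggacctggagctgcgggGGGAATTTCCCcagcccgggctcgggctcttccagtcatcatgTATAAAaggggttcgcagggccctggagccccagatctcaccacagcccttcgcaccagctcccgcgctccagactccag

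The Pf4 promoter was the only 1 of the 8 with a PU.1 core, which began 10 bases before the gene's start on the opposite strand; 9.35% of 32851 mouse promoters of this length held such a match. The Cxcl10 promoter held the ISRE, 213 bases before the start (3.44% of all promoters), and 2 matches to the NF-kappa-B consensus, 159 and 103 bases before it. The NF-kappa-B consensus was also matched in the promoters of Cxcl1, Cxcl2 and Cxcl3 (4 of 8 members, 4.51% of all promoters), in each by a run of 11 bases that matches on both strands with an offset of 1 base. A TATA box letter match was found in Cxcl3, Cxcl9 and Ppbp (3 of 8 members, 13.6% of all promoters). It began 30 bases before the start in Cxcl3, 30 and 8 bases before it in Ppbp, and 195 bases before it in Cxcl9. A gamma-activated site (GAS, TTCNNNGAA), which 8.3% of all promoters held, was matched in 0 of the 8. These matches are letters in a window, and binding was not measured.

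Cxcl2 and Cxcl3 are close copies, so reads could be divided between them. The first 98 bases of their coding regions are identical and are shown with the start codon in capitals, as read from GENCODE mouse release M21 transcripts.

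Cxcl2 and Cxcl3, shared start of the coding region: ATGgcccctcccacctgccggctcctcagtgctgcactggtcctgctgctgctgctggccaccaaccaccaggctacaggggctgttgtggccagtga

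Of 2159 distinct 50-base windows in Cxcl2 transcripts, 126 (5.84%) also occurred in another gene, which was Cxcl3 for each. Of 3587 windows in Cxcl3, 152 (4.24%) occurred in Cxcl2 or in other genes. Windows shared with other genes made up 0.693% in Cxcl5 and 0.472% in Cxcl9, and none were found in the other 6 members. How the counting treated reads with several matches is not given in the sources used here.

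The CXC chemokine transcripts did not move in 1 direction. At an adjusted p below 0.05 in edgeR's quasi-likelihood test over all tested genes, Pf4 and Ppbp were higher and Cxcl16, Cxcl9, Cxcl10 and Cxcl3 lower in the DB2313 group than in the control group, while Cxcl1, Cxcl2 and Cxcl5 did not pass, all with TMM. These were 2 of 9 tested members as higher, beside 20.8% of all tested genes, and 4 of 9 as lower, beside 24.6%, together 6 of 9 beside 45.4%. With an absolute log2 fold change above 1 in addition, Pf4 remained as higher (1 of 9, beside 1.37% of all genes) and Cxcl16 as lower (1 of 9, beside 5.3%). Control and DB2313 libraries were fully separate in level in 8 of the 9, all but Cxcl5, beside 53.1% of all tested genes. The median log2 fold change was 0.30 over the 9 tested members and 0.019 over all tested genes.

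These directions are relative to the scaling. With libraries scaled to the summed T cell genes, 2 members (Pf4 and Ppbp) were higher and 4 (Cxcl16, Cxcl9, Cxcl10 and Cxcl3) lower, beside 1.13% of all genes as higher and 77.2% as lower. With libraries scaled to the summed macrophage genes, all 9 were higher and 0 lower, beside 91.6% and 1.95% of all genes. With Lyz2 left out of that sum, an alternative chosen after seeing the data, 6 members were higher and 1, Cxcl16, was lower, beside 84.3% and 3.66% of all genes.

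**Figure D1:**
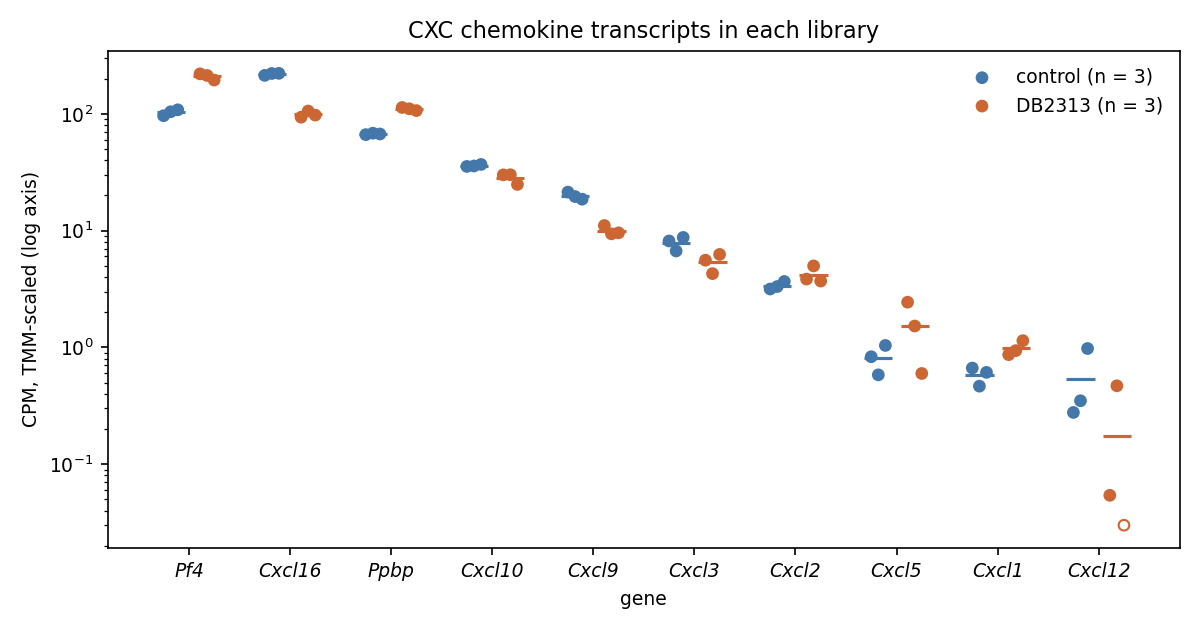
Level of each CXC chemokine transcript in each library, in TMM-normalized CPM on a log axis, with genes on the horizontal axis ordered by level per kilobase in the control group. Points are libraries, short lines are means of 3 libraries, and the open point stands for a count of 0, drawn near the lower edge. Pf4 and Ppbp sit higher and Cxcl16, Cxcl10, Cxcl9 and Cxcl3 lower with DB2313, as scaled by TMM. Scaling to the macrophage genes would put these last 4 higher. With Lyz2 left out Cxcl16 would again be lower, and Cxcl9 would be at -0.11 and not pass.

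The largest rise among the members was in Pf4, which encodes platelet factor 4, a chemokine that binds heparan sulfate and does not activate the usual neutrophil receptors. Pf4 had 1736, 1789 and 1770 counts in the control libraries and 4058, 3631 and 3577 in those with DB2313. This gave 103 ± 6.06 and 209 ± 13.1 CPM (SD, n = 3 each), and the lowest DB2313 library was above the highest control library. The difference on the log2 scale was 1.02 with a standard error of 0.05 (Benjamini-Hochberg adjusted p = 1.30e-14 in the quasi-likelihood fit of edgeR). Over the other scalings it stayed above 0, and was 0.44 when libraries were scaled to the T cell genes and 2.29 when they were scaled to the macrophage genes.

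Ppbp, which encodes the precursor of the neutrophil-attracting Cxcl7, had 1196, 1172 and 1099 counts in the control libraries and 2091, 1882 and 1959 in the DB2313 libraries. Its level was 67.2 ± 0.956 CPM in the control group and 109.99 ± 3.38 CPM with DB2313 (SD, n = 3 each), again without overlap between the groups. The log2 fold change was 0.71 (standard error 0.04, edgeR adjusted p = 3.20e-12), and 0.12 with scaling to the T cell genes, which still passed. Beside each other, the log2 ratio of Pf4 to Ppbp counts was 0.61 ± 0.0750 in the control libraries and 0.92 ± 0.0485 in the DB2313 libraries (SD, n = 3 each), a pair chosen after its values were seen and therefore not tested.

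Other genes of platelets and megakaryocytes were counted in the same libraries. Of 12 such genes, 8 were higher with DB2313 and 0 were lower with TMM, beside 20.8% and 24.6% of all tested genes. Of the rest, 3 did not pass and Gp1bb was at 0 in every library. Their summed level was 214 to 234 CPM in the control libraries and 286 to 288 CPM in the DB2313 libraries. The median log2 fold change of the 11 tested ones was 0.65 with TMM, beside 0.59 for the T cell genes. The most abundant were Itgb3 and Itga2b, the chains of the platelet fibrinogen receptor, which were at 98.0 and 75.2 CPM in the control group and 132 and 83.9 CPM with DB2313. Treml1, Gp5 and Gp9, which are restricted to that lineage, were at 5.42, 9.46 and 5.30 CPM and at 9.29, 14.8 and 9.04 CPM. The part of platelets or megakaryocytes in the rise of Pf4 and Ppbp was not tested.

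Cxcl16 had the largest fall among the members with TMM, and its direction against the macrophage genes rested on Lyz2. The control libraries held 3845, 3802 and 3632 Cxcl16 counts and the DB2313 libraries 1727, 1801 and 1793, so that the lowest control library held more than 2 times the counts of the highest DB2313 library. The level was 219 ± 4.89 CPM in the control group and 98.8 ± 6.14 CPM in the DB2313 group (SD, n = 3 each). The log2 fold change was -1.15 (standard error 0.04, edgeR adjusted p = 2.00e-16), and it was 0.12 when libraries were scaled to the macrophage genes and -0.27 when Lyz2 was left out of them (edgeR adjusted p = 5.66e-06, against 3.01e-165 to 0.0131 over its alternatives). On the log2 scale the macrophage sum differed by -1.27, Lyz2 by -1.89 and the sum without Lyz2 by -0.88. The part of the macrophage RNA in the levels of Cxcl16, Cxcl9, Cxcl10 and Cxcl3 was not tested beyond these scalings. A stretch of 552 bases of Cxcl16 overlaps Zmynd15 on the opposite strand, which had 337 to 354 counts in the control libraries and 241 to 259 with DB2313, and since strand use in the counting is not given, reads in the overlap could belong to either gene.

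Both interferon-inducible chemokines were lower with TMM and higher with scaling to the macrophage genes, where Cxcl9 no longer passed once Lyz2 was left out. Cxcl9 had 385, 336 and 304 counts in the control libraries and 204, 160 and 176 in the DB2313 libraries, or 19.8 ± 1.40 and 9.995 ± 0.913 CPM (SD, n = 3 each). On the log2 scale it differed by -0.99 (standard error 0.10, edgeR adjusted p = 3.68e-08), and by 0.28 with scaling to the macrophage genes, or -0.11 without Lyz2 among them. Cxcl10 had 639, 614 and 603 counts in the control libraries and 554, 513 and 457 with DB2313, or 36.0 ± 0.747 and 28.3 ± 2.997 CPM (SD, n = 3 each). On the log2 scale it differed by -0.35 (standard error 0.08, edgeR adjusted p = 0.000696), and by 0.92 with scaling to the macrophage genes, or 0.53 without Lyz2. The groups did not overlap in either gene.

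Within a library, Cxcl9 was lower relative to Cxcl10 in all 3 DB2313 libraries than in any control library. The log2 ratio of Cxcl9 to Cxcl10 counts, which needs no scaling, was -0.73, -0.87 and -0.99 in the control libraries and -1.44, -1.68 and -1.38 in the DB2313 libraries, a difference of -0.64 in means (exact two-sided permutation test, p = 0.1, which is the lowest p that 3 libraries a group can reach). The sum of both transcripts was 55.3 to 56.8 CPM in the control libraries and 34.4 to 41.0 CPM in the DB2313 libraries, also without overlap (two-sided exact permutation test, p = 0.1), and its log2 difference of -0.55 turned to 0.72 with scaling to the macrophage genes and 0.33 without Lyz2. Their relative Cxcl11, annotated in the table as a polymorphic pseudogene, had 6 to 25 counts in a library and a log2 fold change of 0.15 (95% interval -0.82 to 1.13).

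The ELR chemokines other than Ppbp were low, and Cxcl3 was the only 1 of these 4 to pass the test. Cxcl3, a neutrophil attractant, had 147, 115 and 143 counts in the control libraries and 103, 73 and 115 with DB2313, or 7.86 ± 1.05 and 5.37 ± 1.002 CPM (SD, n = 3 each). The groups did not overlap in CPM, although control replicate 2 and DB2313 replicate 3 were counted equally often. The log2 fold change was -0.54 (standard error 0.16, edgeR adjusted p = 0.00836), and 0.72 with scaling to the macrophage genes, or 0.33 without Lyz2, which did not pass. Without DB2313 replicate 2, the library with the lowest level, it was -0.41 and no longer passed (edgeR adjusted p = 0.0508, against 1.33e-06 to 0.0613 over its alternatives).

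Cxcl2, whose reads overlap in sequence with Cxcl3, had 57, 57 and 60 counts in the control libraries and 71, 85 and 68 with DB2313. Its log2 fold change was 0.30 with a 95% interval of -0.11 to 0.71, and -0.28 with scaling to the T cell genes, so neither a change nor its absence was shown. The log2 ratio of Cxcl2 to Cxcl3 counts (0.5 added to each) was -1.36, -1.01 and -1.25 in the control libraries and -0.53, 0.22 and -0.75 in the DB2313 libraries, a difference of 0.85 in means (two-sided exact permutation test, p = 0.1). The widest spread was in the DB2313 group, where replicate 2 held the most Cxcl2 and the least Cxcl3. Without that library the difference in the ratio was 0.56 and the log2 fold change of Cxcl2 0.16.

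Cxcl1 and Cxcl5 were near the lower limit of the test. Cxcl1 had 12, 8 and 10 counts in the control libraries and 16, 16 and 21 with DB2313, and a log2 fold change of 0.75 (95% interval -0.09 to 1.59). Cxcl5 had 15, 10 and 17 counts in the control libraries and 45, 26 and 11 with DB2313, and a log2 fold change of 0.89 (95% interval -0.0011 to 1.79). The DB2313 libraries of Cxcl5 overlapped the control range, and single libraries moved its value both ways. The log2 fold change was 1.28 without DB2313 replicate 3 (edgeR adjusted p = 0.0102, against 5.82e-05 to 0.579 over its alternatives) and 0.36 without DB2313 replicate 1 (edgeR adjusted p = 0.579).

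Summed over the 5 ELR members, the level was 79.1 to 81.2 CPM in the control libraries and 118 to 126 CPM in the DB2313 libraries (two-sided exact permutation test, p = 0.1). The log2 difference of 0.61 was 0.025 with scaling to the T cell genes. Ppbp made up most of this sum. Without it, a choice made after the values were seen, the sum was 11.1 to 14.1 CPM in the control libraries and 11.7 to 12.7 CPM with DB2313, and the groups overlapped.

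Cxcl12, the ligand of Cxcr4, had 5, 6 and 16 counts in the control libraries and 1, 8 and 0 in the DB2313 libraries, too few to be tested, and the groups overlapped (two-sided exact permutation test, p = 0.3). The count of 0 in DB2313 replicate 3 allows up to 3 counts, or 1.69e-05% of that library. Stromal genes were low as well: apart from Thy1, which T cells share, the 10 genes of that list were at most at 2.11 CPM in the control group, and 1 (Acta2) was lower and 1 (Thy1) higher with DB2313. All 7 mesothelial genes failed the filter on low counts, with Msln and Upk3b at 0 in every library. Of 7 endothelial genes, 1 was lower, 3 were higher and 3 were not tested, with Cldn5 at 0. Over all tested genes, 24.6% were lower and 20.8% higher.

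Of the CXC ligands outside the 10 members, Cxcl13 and Cxcl15 had no count in any library, which allows up to 1.81e-05% of the smallest. Cxcl17 had 1 count in all 6 libraries together. Cxcl14 had 4 to 13 counts in a library, and the groups overlapped.

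Per kilobase of the length listed in the table, Pf4 was the most abundant member in both groups, at 143 ± 8.40 CPM per kb in the control group and 289.8 ± 18.1 CPM per kb with DB2313 (SD, n = 3 each). Cxcl16 was next in the control group at 72.4 ± 1.62 CPM per kb, followed by Ppbp at 62.1 ± 0.883, and these changed places with DB2313, at 32.7 ± 2.03 and 101.6 ± 3.12 CPM per kb. Cxcl10 (16.0 ± 0.332 and 12.6 ± 1.33) and Cxcl9 (6.57 ± 0.465 and 3.31 ± 0.303) came after them in both groups. Cxcl3 and Cxcl2 were at 2.25 ± 0.301 and 1.64 ± 0.125 CPM per kb in the control group and at 1.53 ± 0.287 and 2.02 ± 0.340 with DB2313, where the difference between their means was smaller than the sum of their SDs. DB2313 replicate 3 held nearly equal levels of both. Cxcl5, Cxcl1 and Cxcl12 each had means below 1 CPM per kb in both groups, and the libraries of Cxcl5 and Cxcl1 overlapped in level in both.

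As shares of the summed CPM per kb of all 10 members, Pf4 went from 46.8% ± 1.16 to 65.1% ± 0.766 and Cxcl16 from 23.8% ± 0.328 to 7.37% ± 0.583 (SD, n = 3 each). Ppbp held 20.4% ± 0.566 and 22.8% ± 0.544, Cxcl10 5.25% ± 0.107 and 2.82% ± 0.165, and Cxcl9 2.16% ± 0.230 and 0.745% ± 0.0541. Shares within a library do not depend on its scaling. For each of these 5 genes the groups did not overlap in share, where 53.1% of all tested genes did not overlap in CPM. Shares of a sum are tied to each other, so a rise of Pf4 alone lowers the shares of the others. The sum itself was 304 ± 10.5 CPM per kb in the control group and 445 ± 23.0 with DB2313 (SD, n = 3 each, with TMM). Pf4 and Cxcl16 were also set beside each other, a pair chosen after its values were seen. The log2 ratio of their counts was -1.15, -1.09 and -1.04 in the control libraries and 1.23, 1.012 and 0.996 in the DB2313 libraries. Its sign was thus opposite in the groups, but counts are not corrected for gene length. Per kilobase, Pf4 was above Cxcl16 in both groups.

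**Figure D2:**
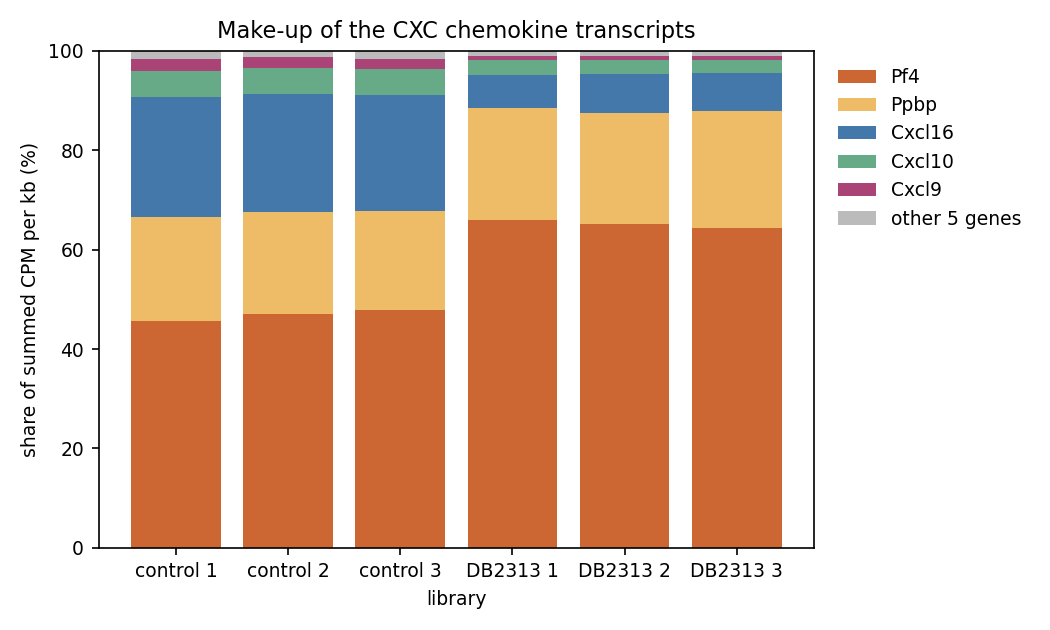
Share of each gene in the summed CPM per kilobase of the 10 CXC chemokines (vertical axis, percent) in each of the 6 libraries (horizontal axis). Pf4 takes 45.6% to 47.9% of the bar in the control libraries and 64.4% to 65.9% in the DB2313 libraries, while Cxcl16 takes 23.5% to 24.1% and 6.69% to 7.71%.

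The receptors of these chemokines were also counted. Of the 8 receptor genes, 7 were tested, of which 3 were higher and 2 lower at an adjusted p below 0.05 with TMM, beside 20.8% and 24.6% of all tested genes. Their median log2 fold change was 0.67. Cxcr6, the receptor of Cxcl16, had 830, 827 and 688 counts in the control libraries and 1425, 1384 and 1498 with DB2313, a log2 fold change of 0.81 (standard error 0.06, edgeR adjusted p = 2.76e-11). Cxcr3, the receptor of Cxcl9 and Cxcl10, was counted 282, 283 and 231 times and 499, 445 and 467 times, a log2 fold change of 0.76 (standard error 0.09, edgeR adjusted p = 1.11e-07). The T cell genes rose in the same libraries by a median of 0.59 on the log2 scale, and with scaling to them Cxcr3 was at 0.18 and did not pass (edgeR adjusted p = 0.0731, against 2.71e-16 to 0.0731 over its alternatives), while Cxcr6 was at 0.23 and passed. Ligand and receptor thus moved in opposite directions with TMM, and with scaling to the macrophage genes both were higher, or Cxcl16 lower and Cxcr6 higher without Lyz2. The log2 ratio of Cxcl16 to Cxcr6 counts was 2.20 to 2.40 in the control libraries and 0.26 to 0.38 with DB2313 (two-sided exact permutation test, p = 0.1). The difference in means was -1.97. With TMM, the summed macrophage genes differed by -1.27 (-0.88 without Lyz2) and the summed T cell genes by 0.59. The part of macrophage and T cell RNA in this ratio was not tested.

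Cxcr5, the receptor of Cxcl13, was counted 115 to 163 times in the control libraries and 196 to 225 times with DB2313, a log2 fold change of 0.58 (standard error 0.13, edgeR adjusted p = 0.000620), and was at -0.0095 with scaling to the T cell genes. Of 9 genes of B cells, which carry Cxcr5, 5 were higher and 1 lower, beside 20.8% and 24.6% of all tested genes. Their sums were 57.2 to 61.2 CPM in the control libraries and 78.8 to 80.3 CPM with DB2313. Cxcr4 was counted 1679 to 1752 times in the control libraries and 1535 to 1717 times with DB2313, a log2 fold change of -0.11 (standard error 0.04, edgeR adjusted p = 0.0307) whose call was lost with DESeq2, with library size or upper quartile scaling, with no filter, with a replicate block (edgeR adjusted p = 0.0558) and in 4 of 6 leave-one-out fits, and whose value turned to 1.15 against the macrophage genes.

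Cxcr2, the main receptor of the ELR chemokines on neutrophils, had 201, 174 and 184 counts in the control libraries and 113, 105 and 129 with DB2313. The log2 fold change was -0.75 (standard error 0.13, edgeR adjusted p = 3.64e-05), and 0.52 with scaling to the macrophage genes, or 0.13 without Lyz2, which did not pass. Of 9 neutrophil genes in the same libraries, 8 were lower and 1 (Retnlg) higher, beside 24.6% and 20.8% of all tested genes. Their sum was 1981 to 1999 CPM in the control libraries and 696 to 715 CPM in the DB2313 libraries. The part of neutrophils in the Cxcr2 and ELR chemokine levels was not tested. Cxcr1 and Ackr1, with at most 26 counts in a library, had log2 fold changes of 0.70 (95% interval -0.17 to 1.58) and 0.67 (95% interval -0.28 to 1.62), and Ackr3 with at most 4 counts was not tested.

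**Figure D3:**
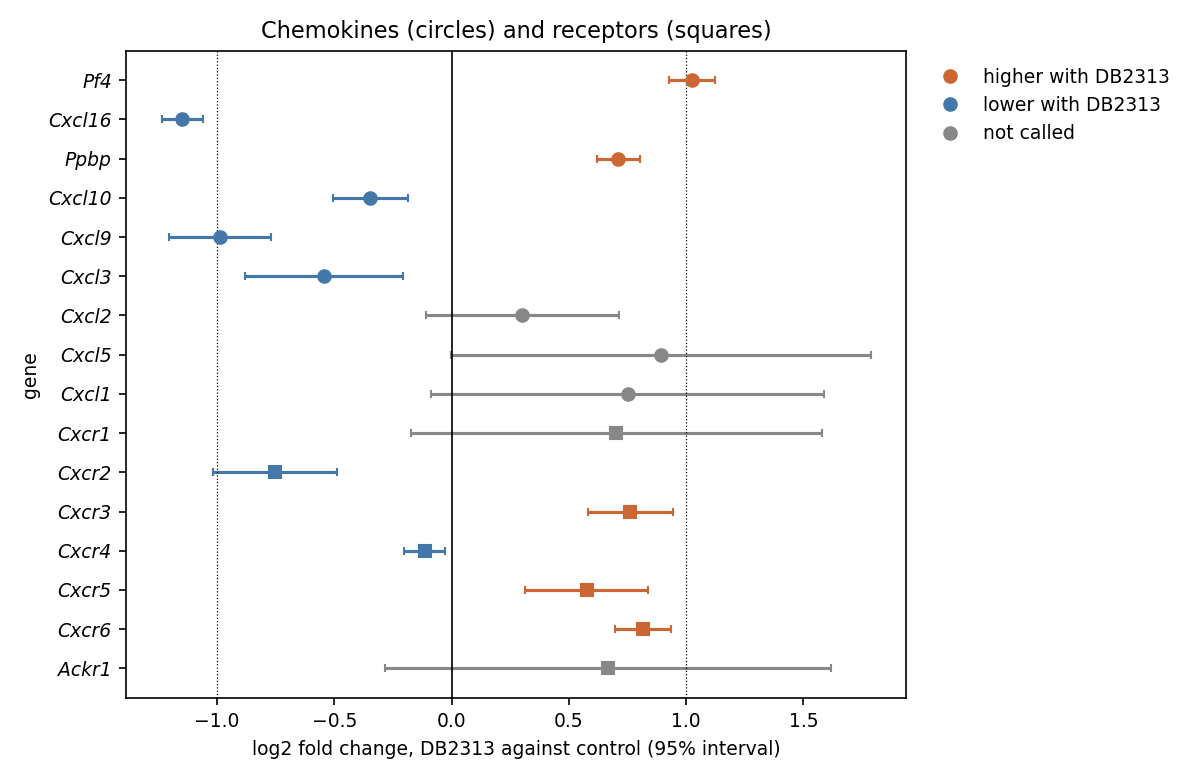
Log2 fold change between the DB2313 and control groups (horizontal axis) with 95% intervals from edgeR for the 9 tested chemokines (circles) and 7 tested receptors (squares). Dotted lines mark a log2 fold change of 1 in either direction; Cxcl16 at -1.15 and Pf4 at 1.02 are the points beyond them, and the intervals of Cxcl2, Cxcl5, Cxcl1, Cxcr1 and Ackr1 include 0. Values are with TMM; scaling to the macrophage genes put every tested chemokine and receptor higher, as it did 91.6% of all genes, and without Lyz2 Cxcl16 and Cxcl9 had values below 0.

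Other genes of the pathway were followed as lists. Among 15 genes that signal behind the receptors, 9 were lower and 2 higher with TMM, beside 24.6% and 20.8% of all tested genes. All 15 were lower against the T cell genes, as were 77.2% of all genes, and all 15 higher against the macrophage genes, as were 91.6%. Their median log2 fold change with TMM was -0.26. The most abundant, Gnai2, an inhibitory G protein subunit, was at 1046 ± 10.3 CPM in the control group and 839.9 ± 17.2 CPM with DB2313 (SD, n = 3 each), a log2 fold change of -0.32 that turned to 0.95 with scaling to the macrophage genes. The largest fall was in Arrb1, a beta-arrestin that ends receptor signalling, with a log2 fold change of -1.03 (standard error 0.04) that was 0.24 with that scaling and -0.15 without Lyz2, and the largest rise in Grk6, a receptor kinase, with 0.30 (standard error 0.03), which was -0.28 with scaling to the T cell genes.

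Of 20 inducers and regulators of CXC genes, 10 were lower and 2 higher with TMM, beside 24.6% and 20.8% of all tested genes. The median of the 19 tested was -0.21 with TMM. With scaling to the T cell genes 17 were lower and 0 higher, beside 77.2% and 1.13% of all genes. With scaling to the macrophage genes 1 was lower and 16 higher, beside 1.95% and 91.6%. Il1b, which encodes the cytokine interleukin-1 beta, had the largest fall, from 13.0 ± 1.31 to 3.06 ± 0.479 CPM (SD, n = 3 each) and a log2 fold change of -2.08 (standard error 0.15). Il1b was at -0.81 with scaling to the macrophage genes and at -1.20 without Lyz2. Among the 19 tested, the largest rise was in Ifngr1, a chain of the IFN-γ receptor, with 0.47 (standard error 0.03). It was -0.12 with scaling to the T cell genes. Ifnb1, the gene of this list that did not pass the filter on low counts, had 1, 0 and 1 counts in the control libraries. With DB2313 it had 11, 5 and 18 counts. Irf1, an interferon-induced transcription factor and the most abundant of the list, was at 635 ± 13.5 and 632 ± 14.3 CPM. Its log2 fold change was -0.0049 with TMM (95% interval -0.071 to 0.061). It was -0.59 with scaling to the T cell genes and 1.26 with scaling to the macrophage genes.

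Of 12 genes whose products cut, bind or store CXC proteins, 5 were lower and 5 higher with TMM, beside 24.6% and 20.8% of all tested genes. Against the T cell genes 8 passed as lower and 4 as higher, beside 77.2% and 1.13% of all genes. Against the macrophage genes 1 passed as lower and 10 as higher, beside 1.95% and 91.6% of all genes. The median was -0.030 with TMM. Mmp9, a gelatinase that trims ELR chemokines, had the largest fall, from 25.9 ± 0.775 to 3.05 ± 0.542 CPM (SD, n = 3 each) and a log2 fold change of -3.08 (standard error 0.12). Mmp9 was at -1.81 with scaling to the macrophage genes and at -2.20 without Lyz2. Mmp12, the macrophage elastase and the most abundant of the list, went from 482 ± 13.7 to 770.1 ± 5.18 CPM, a log2 fold change of 0.68 (standard error 0.03). The largest rise was in Elane, the neutrophil elastase of myeloid progenitors, with 1.13 (standard error 0.04). Of the 9 dendritic cell genes that were counted as well, 6 were lower and 1 higher, beside 24.6% and 20.8% of all tested genes. Their sums were 1652 to 1689 CPM in the control libraries and 1405 to 1460 CPM with DB2313.

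The direction of several members depended on what the libraries were scaled to. Relative to TMM, which centred the median of all tested genes at 0.019, that median was 0.11 with library size scaling, -0.57 with scaling to the T cell genes and 1.29 with scaling to the macrophage genes. Without Lyz2 the last of these was 0.90. Relative to that median, Cxcl16 was lower and Pf4 higher under each of these scalings: against the macrophage genes Cxcl16 was at 0.12 and Pf4 at 2.29, and without Lyz2 at -0.27 and 1.90. A change of scaling shifts the log2 fold change of every gene by nearly the same amount. The order of the members, from Cxcl16 lowest to Pf4 highest, and their place beside the median were therefore bound to stay and test nothing.

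**Figure D4:**
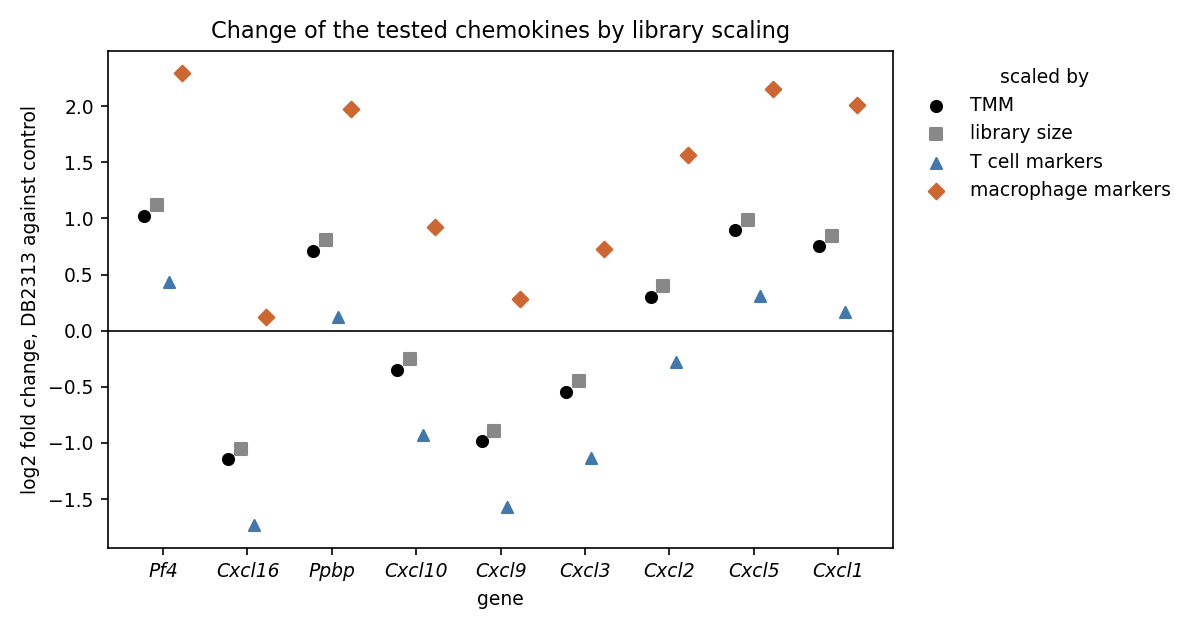
Log2 fold change between the DB2313 and control groups (vertical axis) of the 9 tested CXC chemokines (horizontal axis) with libraries scaled by TMM, library size, summed T cell genes or summed macrophage genes. Points of 1 gene move by nearly the same amount as those of another; Cxcl16 runs from -1.73 to 0.12 and Pf4 from 0.44 to 2.29.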

How the data were processed

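RNA-seq was performed on CD8T cells collected after coculture, 3 control and 3 DB2313 samples, grouped by GEO's labels. The values are whole-number gene counts that the authors deposited. Per the labels, reads were processed with CASAVA 1.8, HISAT2 2.0.5 and featureCounts 1.5.0-p3, whereas the methods of the study name LifeScope; genome build and strand setting are not given in the sources used here. Gene coordinates in the table matched GRCm38 (GENCODE mouse release M21) for 53499 of 54409 shared genes (98.3%).

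Counts were tested on the whole table with edgeR 4.0.16 in R 4.3.3 (filterByExpr with a minimum count of 10, TMM, glmQLFit and glmQLFTest), with Benjamini-Hochberg adjustment over 14883 genes and a threshold of 0.05. CPM are TMM-scaled, and CPM per kb use the length listed in the table. Standard errors are the absolute log2 fold change divided by the square root of F. Sums and ratios were compared by two-sided exact permutation tests over libraries. Alternatives were leaving out each library, a replicate block, no filter or a stricter filter (10 counts or more in all samples), scaling by upper quartile, by library size or to summed T cell or macrophage genes (the latter also without Lyz2, chosen after seeing the data), and DESeq2 1.42.0. The scripts were tested on simulated data.

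Total counts were 16611975 to 18596217, and a count of 0 allows up to 3 counts, which covers counting error only. Libraries of a group differed by more than sampling noise, so each counted as 1 sample. The members and lists were chosen with earlier results of these data known. Named genes were all members, other CXC ligands and receptors, and Spi1. Of each other pathway list they were the most abundant tested gene and the tested genes with the largest rise and fall. Marker genes and Ifnb1 were named after their values were seen. Promoters came from RefSeq (GRCm38.p6) and transcripts from GENCODE, and motifs were searched on both strands.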

Additional observations from a re-analysis of the deposited data

How the results depend on the processing

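Over 44 results and 621 comparisons with an alternative, 519 kept their direction and side of the threshold or stayed within 1.5 times the count. For the sums and ratios only the direction could change, because exact permutation tests of 3 libraries a group allow no p below 0.1. The scaling changed most. With scaling to the macrophage genes, members passing as lower went from 4 to 0 and as higher from 2 to 9 (with a fold change beyond 2-fold, 0 and 5), receptors passing as lower to 0 and as higher to 7, and the values turned to 0.72 for Cxcl3, 0.28 for Cxcl9, 0.92 for Cxcl10, 0.12 for Cxcl16, 0.72 for the summed interferon-inducible level, 0.52 for Cxcr2, 1.15 for Cxcr4, 0.95 for Gnai2, 0.24 for Arrb1, 1.26 for Irf1 and 0.39 for Spi1. With Lyz2 left out of the macrophage genes, an alternative chosen after seeing the data, 1 member passed as lower and 6 as higher (0 and 5 with the fold change), 0 receptors as lower and 6 as higher, and the values turned to 0.33 for Cxcl3, 0.53 for Cxcl10, 0.33 for the summed interferon-inducible level, 0.13 for Cxcr2, 0.76 for Cxcr4, 0.56 for Gnai2 and 0.87 for Irf1, while Cxcl16 stayed lower at -0.27 and Spi1 was at -0.0020. With scaling to the T cell genes, 3 members passed as lower and 0 as higher with the fold change added, receptors passing as higher fell from 3 to 1, and the values turned to -0.28 for Cxcl2, -0.43 for Cxcl11, -0.0095 for Cxcr5, -0.28 for Grk6 and -0.12 for Ifngr1. Of the genes called, 54.2% were lower with TMM, 36.6% with library size, 41.8% with upper quartile, 98.6% with T cell gene scaling, 2.08% with macrophage gene scaling and 4.16% with that scaling without Lyz2. Irf1 was at 0.089 with library size and 0.059 with upper quartile scaling. Receptors passing as lower numbered 1 instead of 2, by the loss of Cxcr4, with library size or upper quartile scaling, no filter or DESeq2.

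Leaving out each library in turn gave 3 to 4 members as lower (3 without DB2313 replicate 2, which lost Cxcl3) and 2 to 3 as higher (3 without DB2313 replicate 3, which added Cxcl5). With the fold change added it gave 1 to 2 as lower (2 without control replicate 3 or DB2313 replicate 1) and 0 to 2 as higher (0 without control replicate 1 or DB2313 replicate 1, 2 without DB2313 replicate 3). It gave 1 to 2 receptors as lower, and values of -0.51 (without DB2313 replicate 2) to 0.54 for Cxcl11 and of -0.020 to 0.015 for Irf1, which was 0.015 without control replicate 3 and 0.013 without DB2313 replicate 3. Cxcl16 stayed between -1.19 and -1.11 and Pf4 between 0.98 and 1.08.

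No pairing by replicate number was seen. Deviations of same-numbered libraries correlated at -0.011 to 0.0025, and those of other pairs at -0.023 to 0.028. Noise of low counts can hide a pairing in such values, so they cannot show that the samples were unpaired. With the replicate block, 4 members passed as lower, 2 as higher and 1 receptor as lower, Cxcr4 being at -0.12 (edgeR adjusted p = 0.0558, against 3.81e-17 to 0.715 over its alternatives). The cause was not tested for any of these changes. Depth limited Cxcl1, Cxcl5, Cxcl11, Cxcl12, Cxcr1 and Ackr1, which had at most 45 counts in a library, and the filter of at least 10 counts in every sample removed Cxcl1, Cxcl11, Cxcr1 and Ackr1.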
